A study of Arabidopsis thaliana with 4 samples.

Results

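The genes described here are the 9 protein arginine methyltransferases of Arabidopsis thaliana, taken by locus as a gene family, with earlier results of these data known, among the 24288 loci of the deposited table. They are PRMT5, PRMT1A, PRMT1B, PRMT3, PRMT4A, PRMT4B, PRMT6, PRMT7 and PRMT10, and all 9 were found. RNA came from whole seedlings of the Columbia ecotype, 12 days old, raised at 23 °C on Murashige and Skoog medium with 3% sucrose under 16 h of light and 8 h of darkness. The libraries were 1 each of atprmt5 (labelled as a mutant of PRMT5), of the lines m90 and s215 (both labelled as mutants) and of wild type. The study's stated subject is pre-mRNA splicing in suppressors of atprmt5. The labels used here do not name the atprmt5 allele, the gene altered in m90 or s215, or whether these lines carry the atprmt5 mutation. With 1 library per genotype no test between genotypes was possible, and each difference below is between 2 libraries.

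Protein arginine methyltransferases move a methyl group from S-adenosylmethionine onto arginine side chains of histones, splicing factors and other RNA-binding proteins. Type I enzymes make asymmetric dimethylarginine, and type II enzymes make the symmetric form. PRMT5 is the type II enzyme of the family, and in Arabidopsis it is known for its part in flowering time, the circadian clock and splicing. Sm proteins, which form the core of spliceosomal snRNPs, are among its substrates. PRMT1A, PRMT1B, PRMT3, PRMT4A, PRMT4B, PRMT6 and PRMT10 are classed as type I, and PRMT10 is a plant-specific member. PRMT7 is known in mammals as a type III enzyme, which stops at monomethylarginine.

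Levels are RPKM (reads scaled to gene length and library total), which is a level per length, so that different genes can be set side by side. The libraries were scaled to totals of 17350612 to 17901204 reads. Brackets after a level or a ratio hold a 95% exact counting interval, Poisson for a level and Clopper-Pearson for a ratio. The reads behind them were recovered as whole hundredths and then rounded to whole reads, so the intervals hold only roughly for fractional counts. The intervals cover counting error only: copies made by PCR are not told apart, and differences between plants of a genotype are not covered. The scaling of each library is taken as exact. To be called higher or lower, a gene had to reach 2-fold in log2((RPKM + 1)/(RPKM + 1)), a scale that understates the change of low genes. The 18688 loci that averaged 1 RPKM or more across the libraries were tested in this way. All 9 genes passed that minimum, PRMT7 with the lowest mean at 1.48 RPKM. The s215 library stood apart from the others. In it 4 of 7 root markers were at 0 (CASP1, CASP2, EXPA7 and COBL9), where 2893 of all 24288 loci were. Of the 6 root markers that passed that minimum 5 reached 2-fold as lower against wild type (24.3% of all tested loci) and 1 as higher (12.7% of loci). PYK10, the most abundant, stood at 3.65 RPKM in s215, against 1553 RPKM in wild type, while NRT2.1 was the higher one, at 1.96 RPKM in s215 and 0.334 RPKM in wild type. All 7 summed to 1521 RPKM in atprmt5, 1393 RPKM in m90, 5.65 RPKM in s215 and 1580.7 RPKM in wild type, nearly all of it PYK10 outside s215. Single markers also differed in the other lines. In atprmt5 3 of 6 were at least 2-fold higher than wild type (EXPA7, NRT2.1 and IRT1; 1.8% of loci) and 0 lower (3.32% of loci). In m90 1 was higher (IRT1; 2.61% of loci) and 0 lower (2.62% of loci). The 5 leaf markers summed to 5910 RPKM in s215, against 17137 RPKM in wild type, with 4 of 5 at least 2-fold lower (24.3% of loci) and none at 0. The 3 flower markers summed to between 0.233 and 2.48 RPKM in all 4 libraries, and the 3 seed markers to 37.7 RPKM in atprmt5, 0.157 RPKM in m90, 0.289 RPKM in s215 and 163 RPKM in wild type. In whole seedlings, fewer cells of a type and less RNA per cell cannot be told apart. Whether the s215 library held the same plant parts as the other libraries was not tested.

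Most members share little sequence, but PRMT1A with PRMT1B and PRMT4A with PRMT4B are close duplicates. Among the 36 pairs of annotated transcripts, the longest identical run was 9 to 16 bases in the 34 pairs other than these. The 8 pairs that hold PRMT5 were among the 34. PRMT1A and PRMT1B were identical at 83.3% of 1101 aligned coding bases and shared a run of 52 bases. For PRMT4A and PRMT4B the values were 85.4% of 1569 aligned coding bases and a run of 35 bases. The most alike coding stretches of 100 bases that lie inside a single exon are shown as places where a read of one copy could be given to the other. Untranslated bases and stretches across exon junctions were left out of that search. Sequences are from the RefSeq assembly TAIR10.1, 5′ to 3′ on the coding strand, and capitals mark the bases that differ within a pair. The first pair, from chr2:8500596-8500695 on the minus strand (PRMT1A) and chr4:14492245-14492344 on the plus strand (PRMT1B), differs at 7 of 100 bases. The second pair, from chr5:19874111-19874210 on the plus strand (PRMT4A) and chr3:2185922-2186021 on the minus strand (PRMT4B), differs at 5 of 100 bases.
PRMT1A: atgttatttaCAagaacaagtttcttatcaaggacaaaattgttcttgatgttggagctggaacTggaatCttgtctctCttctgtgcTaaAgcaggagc
PRMT1B: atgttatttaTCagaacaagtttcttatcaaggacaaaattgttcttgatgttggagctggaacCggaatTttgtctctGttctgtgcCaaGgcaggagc
PRMT4A: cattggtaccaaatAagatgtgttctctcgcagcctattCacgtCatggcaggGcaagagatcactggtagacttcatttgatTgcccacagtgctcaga
PRMT4B: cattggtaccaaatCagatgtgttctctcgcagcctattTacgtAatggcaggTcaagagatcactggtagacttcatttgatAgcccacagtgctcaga
How the authors' counting treated reads with several matches is not given in the sources used here, and values of these 4 genes are uncertain to that extent.

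PRMT5 (AT4G31120, chromosome 4, 15132011 to 15136696, minus strand, 23 exons) had the lowest ratio of the 9 genes in both atprmt5 and m90 against wild type. It stood at 1.25 RPKM in atprmt5, 0.974 RPKM in m90, 1.70 RPKM in s215 and 5.94 RPKM in wild type. The 3 lines were all low and their level intervals did not reach that of wild type, which ran from 5.20 to 6.75 RPKM. The levels rest on reads that round to 51 in atprmt5, 39 in m90, 67 in s215 and 234 in wild type, so transcript was still counted in every line. In atprmt5 the ratio to wild type was 0.210 (0.153 to 0.287), and 0.947% of all tested loci had a log2 ratio as low or lower. In m90 the ratio was 0.164 (0.113 to 0.229), with 0.417% of loci as low or lower. In s215 it was 0.287 (0.215 to 0.377), but 17.2% of loci were as low or lower in that library. Between lines, m90 was at 0.571 of s215 (0.373 to 0.856), an interval below 1. The intervals of m90 against atprmt5 and of s215 against atprmt5 both held 1. The deposited table holds 1 value per gene, so it does not say which exons the remaining reads came from. Only 25 of its 2325 exonic bases lie under a gene on the opposite strand (AT4G31115).

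**Figure D1:**
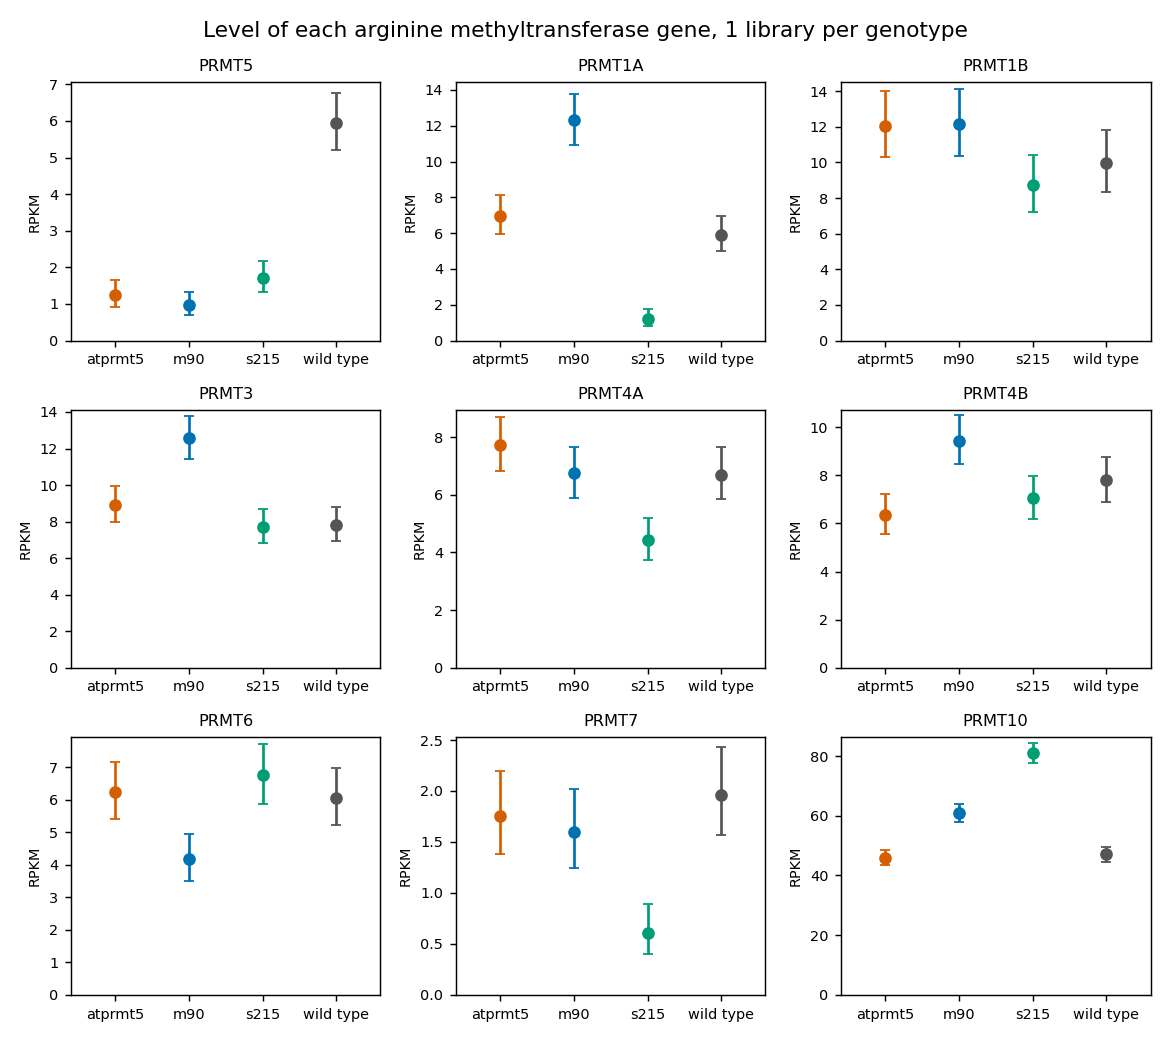
Level in RPKM of each of the 9 genes, on linear axes that start at 0, in the atprmt5, m90, s215 and wild-type libraries. Points are the single library of each genotype and bars the 95% counting interval; PRMT5 lies between 0.974 and 1.70 RPKM in the 3 lines and at 5.94 RPKM in wild type, and PRMT1A is lowest in s215 and highest in m90.

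PRMT1A and PRMT1B are the Arabidopsis homologues of mammalian PRMT1, and their products methylate histone H4 and RNA-binding proteins. The balance between them differed in m90 and s215. PRMT1A (AT2G19670, chromosome 2, 8499000 to 8501294, minus strand, 9 exons) was measured at 6.98 RPKM in atprmt5, 12.3 RPKM in m90, 1.23 RPKM in s215 and 5.92 RPKM in wild type. It was high in m90 alone and low in s215 alone, while the intervals of atprmt5 and wild type overlapped. In m90 the RPKM ratio to wild type was 2.08 (1.69 to 2.55), which on the log2(RPKM + 1) scale gave 0.94 and so just missed 2-fold; 3.08% of tested loci were as high or higher. Against atprmt5 it was 1.76 (1.46 to 2.14). In s215 the ratio was 0.207 (0.134 to 0.310) to wild type and 0.176 (0.114 to 0.262) to atprmt5, from 29 reads. In those 2 comparisons 13.1% and 9.67% of tested loci were as low or lower. The level in m90 was 10.0-fold that in s215 (6.84 to 15.2), with 5.09% of loci as high or higher.

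PRMT1B (AT4G29510, named PRMT11 in RefSeq, chromosome 4, 14491622 to 14494001, plus strand, 9 exons) varied far less. Its level was 12.1 RPKM in atprmt5, 12.2 RPKM in m90, 8.71 RPKM in s215 and 9.97 RPKM in wild type. The ratio to wild type was 1.21 in atprmt5 (0.957 to 1.53), 1.22 in m90 (0.963 to 1.54) and 0.874 in s215 (0.673 to 1.13). These intervals use a length of 768 bases, which is probably a divisor of the true one; with the annotated 1539 bases they were 1.03 to 1.43 in atprmt5 and 1.04 to 1.44 in m90, both above 1. With reads from annotated lengths for both genes, PRMT1A over PRMT1B was 0.579 in atprmt5 (0.483 to 0.694), 1.01 in m90 (0.867 to 1.18), 0.141 in s215 (0.0940 to 0.202) and 0.594 in wild type (0.485 to 0.725). The atprmt5 and wild-type libraries had much the same balance of the pair, whereas m90 had about equal levels and s215 mostly PRMT1B.

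A gene on the opposite strand, AT2G19680, which encodes a subunit of mitochondrial ATP synthase, covers 346 of the 1559 exonic bases of PRMT1A. It stood at 21.6 RPKM in atprmt5, 30.8 RPKM in m90, 20.2 RPKM in s215 and 16.2 RPKM in wild type. It was highest in m90, as PRMT1A was, but not low in s215. The libraries were made strand-specific, yet whether the counting used strand is not given in the sources used here, and the part of this overlap in the PRMT1A values was not tested. In PRMT1B 91 of 1539 exonic bases lie under AT4G29520, in PRMT3 28 of 2221 under RBR1 and in PRMT4A 50 of 2028 under OVA2. The other 4 genes overlap none.

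PRMT3 (AT3G12270, chromosome 3, 3910481 to 3913376, plus strand, 7 exons), which in Arabidopsis acts in ribosome biogenesis, was high in m90 alone. It stood at 8.93 RPKM in atprmt5, 12.6 RPKM in m90, 7.72 RPKM in s215 and 7.82 RPKM in wild type. The m90 level was 1.61 of wild type (1.38 to 1.88), 1.41 of atprmt5 (1.22 to 1.63) and 1.63 of s215 (1.40 to 1.90). The intervals of atprmt5 and of s215 against wild type both held 1.

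PRMT4A and PRMT4B are the plant homologues of CARM1, and both methylate histone H3. PRMT4A (AT5G49020, chromosome 5, 19871191 to 19874974, plus strand, 15 exons) was low in s215 alone. Its level was 7.72 RPKM in atprmt5, 6.74 RPKM in m90, 4.42 RPKM in s215 and 6.70 RPKM in wild type. The s215 level was 0.660 of wild type (0.531 to 0.814) and 0.572 of atprmt5 (0.464 to 0.702). PRMT4B (AT3G06930, chromosome 3, 2185129 to 2189434, minus strand, 15 exons) was lowest in atprmt5 and highest in m90. It stood at 6.35 RPKM in atprmt5, 9.44 RPKM in m90, 7.05 RPKM in s215 and 7.79 RPKM in wild type. Its ratio to wild type was 0.815 in atprmt5 (0.680 to 0.973) and 1.21 in m90 (1.03 to 1.42), and m90 was at 1.49 of atprmt5 (1.25 to 1.76). PRMT4A over PRMT4B, again from annotated lengths, was 1.22 in atprmt5 (1.02 to 1.45), 0.714 in m90 (0.603 to 0.842), 0.627 in s215 (0.512 to 0.770) and 0.860 in wild type (0.720 to 1.03). The atprmt5 library was the only one of the 4 in which PRMT4A had the higher level of the pair.

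PRMT6 (AT3G20020, chromosome 3, 6983702 to 6988101, minus strand, 12 exons) was low in m90 alone. It stood at 6.25 RPKM in atprmt5, 4.18 RPKM in m90, 6.76 RPKM in s215 and 6.06 RPKM in wild type. The m90 level was 0.689 of wild type (0.549 to 0.863), 0.668 of atprmt5 (0.534 to 0.835) and 0.618 of s215 (0.495 to 0.771). It was the 1 type I gene below both atprmt5 and wild type in m90 with intervals that stayed under 1.

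PRMT10 (AT1G04870, chromosome 1, 1373234 to 1375821, minus strand, 7 exons), the plant-specific enzyme, was by far the most abundant of the 9 transcripts. It stood at 46.0 RPKM in atprmt5, 60.8 RPKM in m90, 81.0 RPKM in s215 and 47.0 RPKM in wild type. The intervals of atprmt5 and wild type overlapped, with m90 above them and s215 highest. Because it was counted by 1279 to 2206 reads per library, its ratios have the narrowest counting intervals of the family relative to their size. The ratios were 0.978 in atprmt5 (0.904 to 1.06), 1.29 in m90 (1.20 to 1.39) and 1.72 in s215 (1.61 to 1.85), each to wild type. These intervals do not cover the scaling of the libraries. With the median ratio to wild type set to 0, the log2 ratio in s215 was 0.92 in place of 0.77, a move larger than its counting interval covers. The ratio of m90 to s215 was 0.751 (0.704 to 0.800). None reached 2-fold, and 17.4% of tested loci were as high or higher in s215 against wild type.

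PRMT7 (AT4G16570, chromosome 4, 9336696 to 9340869, plus strand, 14 exons) was the least abundant member in wild type and in s215. Its level was 1.75 RPKM in atprmt5, 1.60 RPKM in m90, 0.608 RPKM in s215 and 1.96 RPKM in wild type. It was low in s215 alone, from 26 reads, at 0.310 of wild type (0.191 to 0.485) and 0.346 of atprmt5 (0.214 to 0.549). On the log2(RPKM + 1) scale the s215 value against wild type was -0.88, which is short of 2-fold because the added 1 weighs on so low a gene. The interval of atprmt5 against wild type and that of m90 against wild type held 1.

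Ordered by level within a library, PRMT10 came first in all 4, at 47.3% of the summed RPKM of the 9 genes in atprmt5, 50.4% in m90, 68.0% in s215 and 47.4% in wild type. It stood above 89.4% of all loci in atprmt5, 91.7% in m90, 94.0% in s215 and 89.1% in wild type. In wild type PRMT1B followed at 9.97 RPKM, then PRMT3, PRMT4B, PRMT4A, PRMT6, PRMT5 and PRMT1A, down to 5.92 RPKM. Each neighbour from PRMT1B to PRMT1A had overlapping intervals, so that their order is not resolved step by step. PRMT1B (8.34 to 11.8 RPKM) was nevertheless separate from PRMT4A, PRMT6, PRMT5 and PRMT1A, and PRMT7 lay separate beneath all of them. In atprmt5 and m90 PRMT5 came last, beneath PRMT7, with intervals that overlapped those of PRMT7. In s215 the lowest 3 were PRMT5, PRMT1A and PRMT7, again with overlap between neighbours.

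The summed RPKM of the family was 97.3 in atprmt5, 120.8 in m90, 119 in s215 and 99.2 in wild type. Without PRMT10 and PRMT5 the other 7 genes summed to 50.1 RPKM in atprmt5, 59.0 RPKM in m90, 36.5 RPKM in s215 and 46.2 RPKM in wild type. The sum in s215 was thus close to that in m90 with PRMT10 and the lowest of the 4 libraries without it.

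**Figure D2:**
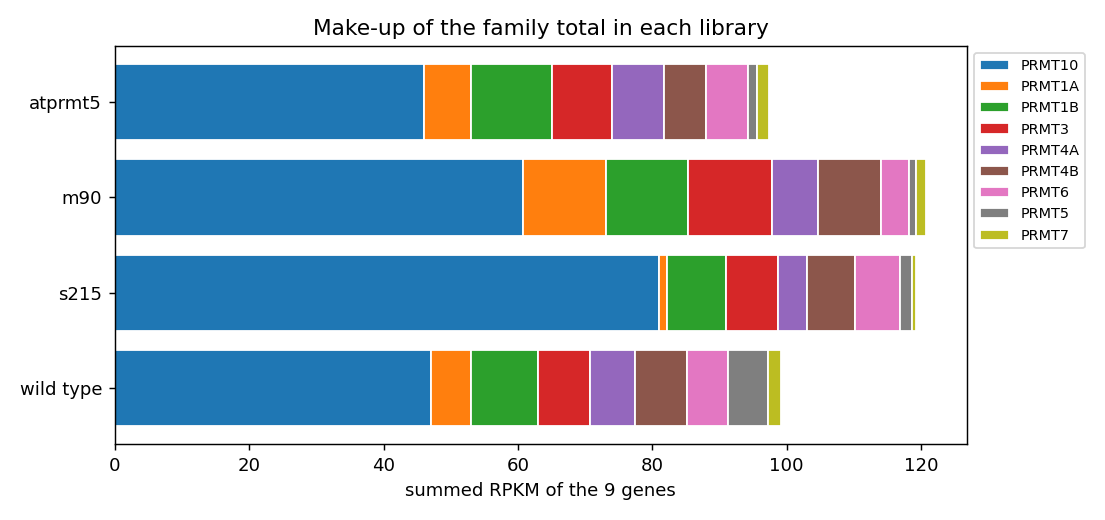
Summed RPKM of the 9 genes in each library, with 1 coloured segment per gene. PRMT10 makes up 47.3% of the bar in atprmt5, 50.4% in m90, 68.0% in s215 and 47.4% in wild type, and the PRMT5 segment is narrow in the 3 lines.

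In each of the 6 comparisons between 0 and 2 of the 9 genes reached 2-fold, and PRMT5 and PRMT1A were the only members that did. With a pseudocount of 0.1 or 0.5 in place of 1, PRMT7 was also past 2-fold in s215 against wild type, at -1.54 and -1.15. In atprmt5 against wild type 0 of 9 were at least 2-fold higher, where 1.8% of tested loci were, and 1 was lower (PRMT5), where 3.32% were. The other 8 genes lay between -0.26 and 0.25 on the log2 scale, and the median of the 9 was 0.04, beside -0.003 over all tested loci. In m90 against wild type 0 were higher (2.61% of loci) and 1 was lower (PRMT5, 2.62% of loci), with a median of 0.25 beside -0.04. In s215 against wild type 0 were higher (12.7% of loci) and 2 were lower (PRMT5 and PRMT1A, 24.3% of loci), with a median of -0.18 beside -0.15. The share of 2 in 9 is near that of all loci. These 3 comparisons share the wild-type library.

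Between the lines, m90 against atprmt5 had 0 of 9 higher (3.63% of loci) and 0 lower (2.34% of loci), with a median of 0.01 beside -0.04. PRMT1A was the highest of the 9 at 0.74 and PRMT6 the lowest at -0.49. In s215 against atprmt5 0 were higher (12.7% of loci) and 1 was lower (PRMT1A, 23.2% of loci), with a median of -0.19 beside -0.12. In m90 against s215 1 was higher (PRMT1A, 25.2% of loci) and 0 were lower (15.2% of loci), with a median of 0.44 beside 0.10. Counting error alone did not cover many of the smaller differences: intervals left out 1 for 2 of 9 genes in atprmt5 against wild type, 6 in m90 against wild type and 5 in s215 against wild type. With annotated lengths the first 2 counts were 3 and 7, PRMT1B being the gene added. For m90 against s215 they left out 1 for all 9, in a comparison where 40.4% of all tested loci differed by at least 2-fold. The change of these counts with the scaling of the libraries was not computed. How often such intervals leave out 1 among all tested loci was not computed either. These counts therefore do not set the family apart from other loci. Every comparison with s215 is also one in which root and leaf markers differ, and their part in these values was not tested. Against atprmt5, all 5 leaf markers were at least 2-fold lower in s215, where 23.2% of loci were.

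**Figure D3:**
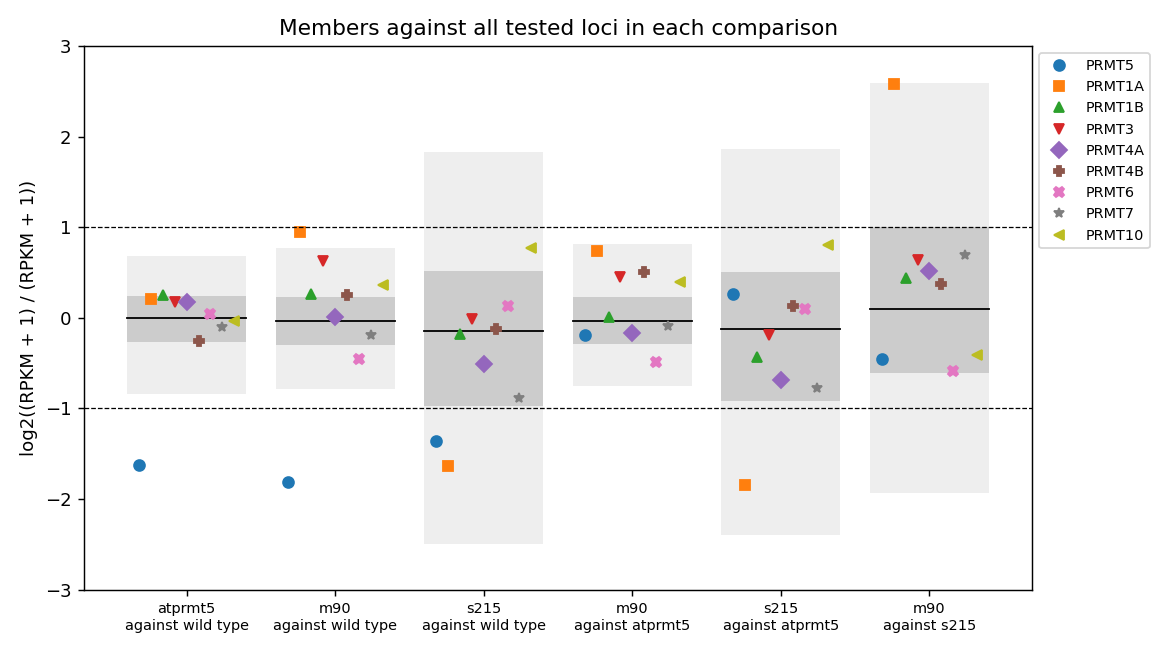
Log2 ratio on the RPKM + 1 scale of each member in the 6 comparisons, first-named library over second. Light bars span the 5th to 95th percentile of the tested loci, dark bars the 25th to 75th, black lines the median and dashed lines 2-fold; PRMT5 lies below the light bar in atprmt5 and m90 against wild type, and both PRMT5 and PRMT1A lie within it in s215 against wild type.

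Over the 4 libraries PRMT1A had the widest range of the family, at 10.0-fold between m90 and s215, and PRMT5 came next at 6.10-fold between wild type and m90. Their log2 ranges of 2.58 and 1.81 were wider than those of 89.5% and 77.6% of tested loci. PRMT7 spanned 3.23-fold, and the other 6 between 1.40-fold (PRMT1B) and 1.76-fold (PRMT10). The median log2 range of all tested loci was 1.001, which all members other than PRMT5 and PRMT1A stayed under. With s215 left out, PRMT5 kept its 6.10-fold range, now wider than that of 97.5% of loci, and PRMT1A spanned 2.08-fold, wider than 87.9%.

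The loci whose profile over the 4 libraries was most like that of PRMT5 (smallest Euclidean distance of centred log2(RPKM + 1) values) were the beta-galactosidase gene BGAL4 (AT5G56870) at 0.128, AT3G15630 at 0.272 and the auxin response gene IAA6 (AT1G52830) at 0.306. BGAL4 stood at 4.80 RPKM in atprmt5, 3.50 RPKM in m90, 5.67 RPKM in s215 and 16.2 RPKM in wild type. The nearest member of the family was PRMT6, at a distance of 1.32. For PRMT1A the nearest loci were cPT5 (AT5G58780) at 0.0672, AT3G14870 at 0.0902 and the Aurora kinase gene AUR3 (AT2G45490) at 0.0911. The nearest, cPT5, stood at 2.40 RPKM in atprmt5, 5.01 RPKM in m90 and 2.08 RPKM in wild type, and was listed at 0 in s215. AT3G14870 stood at 4.44 RPKM in atprmt5, 7.43 RPKM in m90, 0.410 RPKM in s215 and 3.39 RPKM in wild type. AUR3, a kinase of mitosis, stood at 2.59 RPKM in atprmt5, 5.42 RPKM in m90 and 2.27 RPKM in wild type, and was listed at 0 in s215. The nearest family member to PRMT1A was PRMT7, at 1.35. With only 4 libraries such likeness is a description of these profiles.

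Genes around the enzymes were examined in 4 lists with 28 loci, all of which passed the minimum of 1 RPKM. The first holds 10 known or reported substrates of PRMT5 and its cofactor ICLN, 11 loci in all. In atprmt5 against wild type 0 of 11 were higher (1.8% of all tested loci) and 0 lower (3.32% of loci), and the list had a median of -0.03 beside -0.003 over all tested loci. SmBA (AT5G44500) was at 4.43 RPKM in atprmt5, 3.29 RPKM in m90, 2.19 RPKM in s215 and 1.93 RPKM in wild type. Its plain RPKM ratio of atprmt5 to wild type was 2.29. On the log2(RPKM + 1) scale this low gene gave 0.89 and so missed 2-fold. SmD1A (AT3G07590), a core protein of the spliceosomal snRNPs, was at 5.06 RPKM in atprmt5, 7.20 RPKM in m90, 9.18 RPKM in s215 and 2.98 RPKM in wild type. It was the 1 of 11 at least 2-fold higher in m90 than in wild type (2.61% of loci), and it was lowest in wild type. The other copy, SmD1B (AT4G02840), stood at 12.8 RPKM in atprmt5, 13.3 RPKM in m90, 5.88 RPKM in s215 and 10.7 RPKM in wild type.

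In s215 against wild type 3 of 11 were higher (SmD1A, GRP7 and AGO2; 12.7% of all tested loci were) and 0 lower (24.3% of loci), with a median of 0.44 beside -0.15. GRP7 (AT2G21660), a clock-controlled RNA-binding protein and the most abundant of the list in wild type, was at 111 RPKM in atprmt5, 85.9 RPKM in m90, 458 RPKM in s215 and 129 RPKM in wild type. Its relative GRP8 (AT4G39260) was at 33.2 RPKM in atprmt5, 21.4 RPKM in m90, 68.2 RPKM in s215 and 34.9 RPKM in wild type. AGO2 (AT1G31280), an Argonaute protein of small RNA defence, was at 10.8 RPKM in atprmt5, 10.6 RPKM in m90, 26.1 RPKM in s215 and 11.03 RPKM in wild type. All 3 were highest in s215. In s215 against atprmt5 3 were higher (GRP7, GRP8 and AGO2; 12.7% of loci) and 1 lower (SmD1B; 23.2% of loci), with a median of 0.26 beside -0.12, and in m90 against atprmt5 0 were higher (3.63% of loci) and 0 lower (2.34% of loci). In m90 against s215 1 was higher (SmD1B; 25.2% of loci) and 3 were lower (GRP7, GRP8 and AGO2; 15.2% of loci).

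The second list is the methyl donor cycle, 11 genes that make S-adenosylmethionine, clear its by-product and rebuild methionine. In atprmt5 against wild type 1 of 11 was higher (1.8% of loci) and 0 lower (3.32% of loci), and the list had a median of 0.37 beside -0.003. The higher gene was MTO3 (AT3G17390), an S-adenosylmethionine synthetase, at 423 RPKM in atprmt5, 252 RPKM in m90, 213 RPKM in s215 and 179 RPKM in wild type. It was highest in atprmt5 and lowest in wild type. In m90 0 of 11 were 2-fold higher (2.61% of loci) or lower (2.62% of loci) than in wild type, with a median of 0.49 beside -0.04, nor was any against atprmt5 (3.63% and 2.34% of loci).

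In s215 against wild type 0 of 11 were higher (12.7% of loci) and 3 lower (SAHH2, ADK1 and MS2), with a median of -0.66 beside -0.15. A count of 3 in 11 is near the 24.3% of all tested loci that were lower. Against atprmt5 5 of 11 were lower, SAM3 and MS1 with those 3, where 23.2% of loci were, with a median of -0.99 beside -0.12. SAHH2 (AT3G23810), which removes the by-product S-adenosylhomocysteine, was at 145 RPKM in atprmt5, 146 RPKM in m90, 22.3 RPKM in s215 and 100.4 RPKM in wild type. The paralogue SAHH1 (AT4G13940), the most abundant of the list, was at 610.01 RPKM in atprmt5, 619 RPKM in m90, 451 RPKM in s215 and 489 RPKM in wild type. Adenosine kinase ADK1 (AT3G09820) was at 65.9 RPKM in atprmt5, 76.3 RPKM in m90, 19.8 RPKM in s215 and 50.8 RPKM in wild type. Methionine synthase MS2 (AT3G03780) was at 119 RPKM in atprmt5, 110.4 RPKM in m90, 18.6 RPKM in s215 and 66.6 RPKM in wild type, and MS1 (AT5G17920) at 324 RPKM in atprmt5, 328 RPKM in m90, 156 RPKM in s215 and 264 RPKM in wild type. In m90 against s215 6 of 11 were higher, SAM2 (AT4G01850) with those 5, and 0 lower, where 25.2% and 15.2% of loci were. SAM3 (AT2G36880) was at 206 RPKM in atprmt5, 199 RPKM in m90, 86.9 RPKM in s215 and 137 RPKM in wild type, and SAM2 at 296 RPKM in atprmt5, 359 RPKM in m90, 170.02 RPKM in s215 and 333 RPKM in wild type. Several of these genes have close paralogues in the list, so single values are uncertain where reads could match both.

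The third list holds JMJ20 and JMJ22, reported to remove methyl groups from histone arginine, and the Tudor-domain genes TSN1 and TSN2, and the last holds the fibrillarins FIB1 and FIB2, whose mammalian and yeast counterparts are methylated by type I enzymes. JMJ20 (AT5G63080) was at 5.59 RPKM in atprmt5, 4.26 RPKM in m90, 16.5 RPKM in s215 and 6.60 RPKM in wild type, and it was the 1 of these 6 genes at least 2-fold higher in s215 than in wild type or atprmt5, where 12.7% of loci were in each case. In m90 against s215 JMJ20 was at least 2-fold lower (15.2% of loci). TSN1 (AT5G07350) was at 57.9 RPKM in atprmt5, 60.3 RPKM in m90, 59.2 RPKM in s215 and 50.1 RPKM in wild type. FIB1 (AT5G52470) was at 55.8 RPKM in atprmt5, 67.9 RPKM in m90, 64.7 RPKM in s215 and 62.2 RPKM in wild type, so that both varied little. FIB2 (AT4G25630) was at 12.7 RPKM in atprmt5, 15.9 RPKM in m90, 5.62 RPKM in s215 and 8.91 RPKM in wild type. It reached 2-fold as lower in s215 against atprmt5 (23.2% of loci) and as higher in m90 against s215 (25.2% of loci). The 4 demethylase and Tudor genes had a median of 0.23 in atprmt5, 0.27 in m90 and 0.13 in s215, each against wild type. Over all tested loci the medians were -0.003, -0.04 and -0.15. In atprmt5 or m90 against wild type, and in m90 against atprmt5, 0 of the 6 reached 2-fold. Of all tested loci 5.12%, 5.22% and 5.98% did so in either direction.

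**Figure D4:**
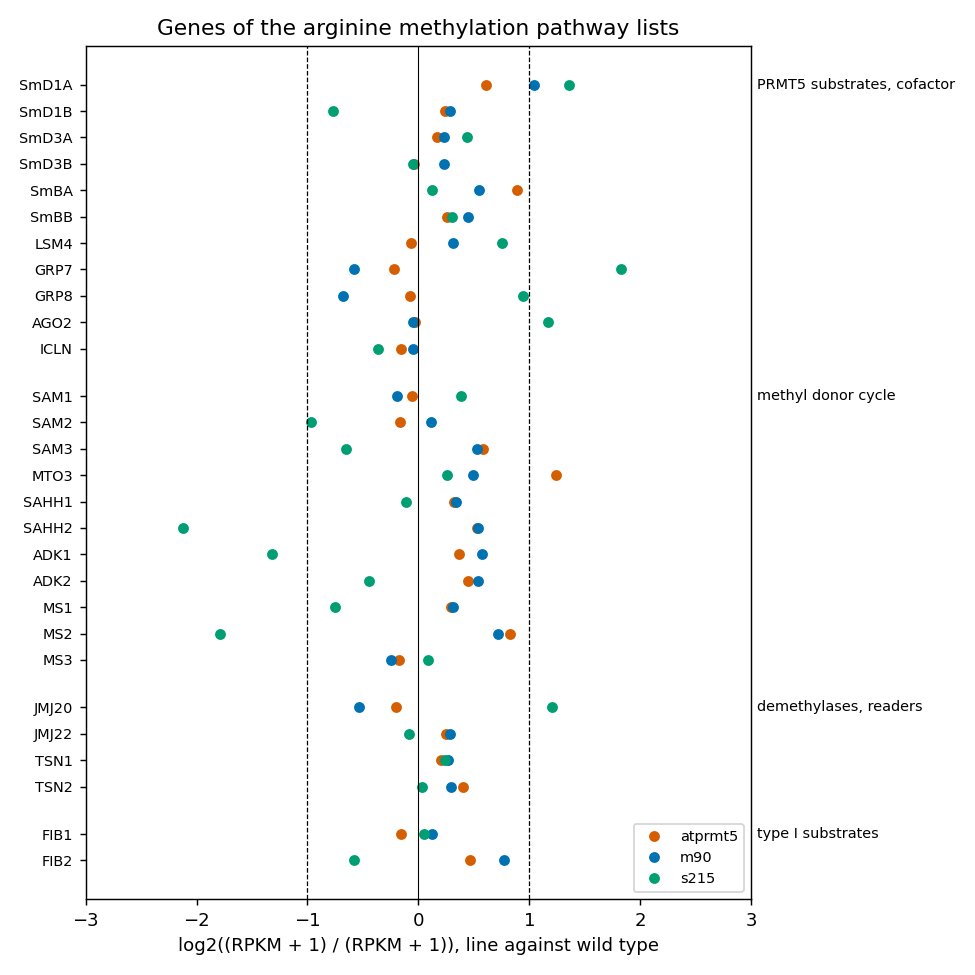
Log2 ratio on the RPKM + 1 scale of the 28 pathway genes in atprmt5, m90 and s215, each over wild type, grouped by list; dashed lines mark 2-fold. MTO3 is the 1 gene past 2-fold in atprmt5 and SmD1A the 1 in m90, while 4 are higher and 3 lower in s215. Of all tested loci 5.12% were past 2-fold in either direction in atprmt5 and 5.22% in m90. In s215 12.7% of them were higher and 24.3% lower.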

How the data were processed

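RNA was measured in 4 libraries, 1 per genotype, grouped by the genotype label. Trizol extraction and strand-specific libraries by a SMART method are described in the labels' protocols. TopHat2 2.0.11 and the build TAIR10 are named in the submitters' processing notes; which program counted reads, with what annotation and whether by strand, is not given there. The authors deposited 1 table of RPKM values, with 24288 loci in rows and the libraries in columns. The RPKM of 1 read in each library was the commonest product of value and annotated length over loci with 1 transcript, and reads of each gene followed from the smallest length at which all 4 values were whole hundredths of a read within 1e-05. For PRMT1B that length (768) is probably a divisor of the true one, since 1536 lies near the annotated 1539 bases, and its intervals are then too wide.

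Gene positions, transcripts and sequences came from RefSeq on TAIR10.1, which keeps the nuclear chromosomes of TAIR10; all 9 members and 28 pathway loci matched by locus. Alignments used Biopython 1.88, and intervals SciPy 1.17.1. Intervals of the ratio between paralogues used reads from annotated lengths. Log2 ratios used a pseudocount of 1 RPKM, plain ratios of RPKM used none, and the minimum mean was 1 RPKM. The 2-fold rule was tried on simulated data with counting error only and planted changes larger than 2-fold. Those simulated data do not cover differences between plants or changes near 2-fold. Members, lists and the rule for named genes (all 9 members, each list gene past 2-fold in any comparison or most abundant in wild type, and the 3 nearest profiles of PRMT5 and PRMT1A) were chosen with earlier results of these data known. SmBA was named in addition, because its plain RPKM ratio of atprmt5 to wild type passed 2-fold. Plain ratios also passed 2-fold, without a call, for SmBA in s215 against atprmt5 (0.495) and for the adenosine kinase gene ADK2 (AT5G03300) in m90 against s215 (2.02). SmD1A, SmD1B, SmD3B, SmBA and ICLN carry no symbol in RefSeq and are named from general knowledge; the names JMJ20 and JMJ22 are synonyms in RefSeq, not symbols, and their role is also from general knowledge.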

Additional observations from a re-analysis of the deposited data

How the results depend on the processing

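Counts of genes past 2-fold were recomputed with other pseudocounts, filters and scalings, and 157 of 168 kept within 1.5 times of the value given. With a pseudocount of 0.1 or 0.5, 3 methyltransferase genes were lower in s215 against wild type, PRMT7 the added one. At those settings 28.2% and 26.5% of tested loci were lower. With 0.1, 1 methyltransferase gene was higher in m90 against wild type (PRMT1A, 4.27% of loci). Also with 0.1, 2 were lower in s215 against atprmt5 (26.8% of loci) and 2 higher in m90 against s215 (28.7% of loci). In both, PRMT7 joined PRMT1A. With 0.5, 2 were again lower in s215 against atprmt5 (25.1% of loci). Either pseudocount gave 2 pathway genes higher in atprmt5 against wild type, MTO3 and SmBA (3.42% of loci with 0.1 and 2.48% with 0.5). A minimum mean of 5 RPKM removes PRMT5 and PRMT7. Against wild type it left 0 lower in atprmt5 (3.25% of loci), 0 in m90 (2.27% of loci) and 1 in s215 (22.4% of loci). Setting the median ratio to wild type to 0 gave 4 pathway genes lower in s215 against atprmt5 (21.1% of loci). The same setting gave 5 higher in m90 against s215 (23.5% of loci). Without it the median of all tested loci was -0.15 in s215 against wild type, and the s215 values given above were not corrected for that shift. Filtering on the 3 libraries other than s215, chosen after seeing the data, moved no count beyond 1.5 times. Of 366 single log2 ratios 3 changed sign: PRMT3 and PRMT4B in s215, and PRMT10 in atprmt5, all against wild type and all under 0.13 in size. Among the same ratios 7 moved by more than their counting interval covers. PRMT10 did so in each comparison with s215 when the median ratio to wild type was set to 0. With reads from annotated lengths, 2 of 54 intervals changed side of 1: PRMT1B against wild type was then 1.03 to 1.43 in atprmt5 and 1.04 to 1.44 in m90. No paired analysis was possible because each genotype has 1 library. At this depth PRMT5, PRMT1A and PRMT7 rest on under 100 reads where they are low, which limits their ratios most.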
